A study of Mus musculus with 30 samples.

Results

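The 33 genes described here carry out glycolysis or belong to the transcriptional response to low oxygen. They were taken as a list by symbol from the counts of 28586 genes, and comprise 3 transporters of glucose and lactate, 14 enzymes of the glycolytic chain from hexokinase to lactate dehydrogenase, 3 regulatory enzymes, 3 genes of the oxygen-sensing system and 10 further target genes of hypoxia-inducible factor (HIF). Of these, 32 were listed in the tables of both RNA fractions at every time point, and Bnip3 was absent from 1 table of the glial fraction, where it was taken as 0.

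Gene expression was measured in the small bowel muscularis externa (ME), the muscle layer that holds the enteric neurons and glia, of adult male mice that were naive or had undergone intestinal manipulation (IM), a surgical model of postoperative ileus in which the exposed bowel is rolled with cotton swabs, 3, 24 or 72 h earlier. In the RiboTag fraction, RNA was pulled down with HA-tagged ribosomes from mice carrying B6 Tg(Sox10-icre/ERT2)388Wdr/J and B6N.129 Rpl22tm1.1Psam/J, in which tamoxifen-activated Cre under Sox10 regulation tags the ribosomes of enteric glia. This fraction held 3 naive libraries, where the labels list 4 samples, and 4 libraries at each of IM3h, IM24h and IM72h. The ME fraction is total RNA of the whole muscularis, with 3 naive, 3 IM3h, 4 IM24h and 4 IM72h libraries. The naive and IM3h ME mice carried B6.Cg-Tg73.12Mvs/J(Gfap-cre) with the same Rpl22 allele, and the IM24h and IM72h ME mice carried the Sox10 transgene, so in ME the mouse line cannot be told apart from time in any comparison of IM24h or IM72h with naive, whereas IM3h against naive and IM72h against IM24h are each within a line. Operated mice also received isoflurane and tramadol and were cut open, and no sham group was analysed, so these parts of the procedure cannot be told apart from the manipulation.

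In glycolysis, cells take up glucose through Slc2a transporters, trap and split it in the upper part of the chain, and recover energy in the lower part, where pyruvate can be turned into lactate that leaves through Slc16a3. When oxygen is low, the prolyl hydroxylases encoded by the Egln genes no longer mark the HIF1 alpha protein for degradation, and it binds short motifs near its target genes, many of which encode glycolytic enzymes. The same genes are also raised by inflammatory and growth factor signals with normal oxygen, and Hif1a protein is controlled mostly after translation, so the transcript of Hif1a is not a reading of HIF activity.

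Library totals were 3010306 to 7899493 counts in RiboTag and 6603170 to 12866062 counts in ME. A single transcript within a ribosomal RNA gene, AY036118, took 2.02 to 13.98% of counts in naive and IM3h RiboTag libraries, 22.2 to 59.2% at IM24h and 58.0 to 80.1% at IM72h, which left 663808 to 1619377 other counts per IM72h RiboTag library. In ME its share went the other way, from 16.1 to 33.5% in naive and 24.1 to 25.1% at IM3h to 1.33 to 6.50% at IM24h and 2.34 to 3.69% at IM72h. With AY036118 left out of the counts the number of members called against naive in ME was 13, 16 and 14 at the 3 times, as with it. Levels are given as CPM, the counts of a gene scaled to the TMM-adjusted library total, and are listed from the lowest to the highest library of a group, and each is followed by its log2 fold change with the standard error (SE). Comparisons of a fraction with naive share the naive libraries. A call is an adjusted p under 0.05 in edgeR's quasi-likelihood test over all genes tested, and the share of all genes called is given beside the first count of each comparison. The 8 glial markers were all higher in naive RiboTag than in naive ME, with a median log2 difference of 3.45, and the 8 smooth muscle markers were still present in naive RiboTag at a summed 5029 to 7599 CPM, against 22593 to 23765 CPM in naive ME.

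At IM3h, the glial fraction showed a rise of the glycolytic activator Pfkfb3, hexokinase 2, Vegfa and Hif1a, while most enzymes of the glycolytic chain passed no test. Of 32 members tested in RiboTag at IM3h against naive, 4 rose and 2 fell, where 13.3% of all 16053 genes were called (8.86% higher and 4.44% lower). The median log2 fold change was 0.12 over the members and -0.04 over all genes. Pfkfb3 makes fructose 2,6-bisphosphate, the strongest activator of phosphofructokinase (chr2:11471433-11554077, mm10). It stood at 4.95, 6.33 and 9.96 CPM in the naive libraries and at 69.1, 83.9, 92.8 and 101 CPM at IM3h. Every operated library was thus several times above every naive one, with a log2 fold change of 3.67 ± 0.33 (SE), adjusted p = 5.42e-05, the largest rise among the members. Hk2, the inducible hexokinase that commits glucose to the cell (chr6:82725025-82774454), was at 12.1, 17.6 and 22.5 CPM in naive and at 50.7, 57.2, 71.2 and 74.5 CPM at IM3h. The groups did not overlap (log2 fold change 1.93 ± 0.31 (SE), adjusted p = 0.00183). Vegfa, which encodes the main growth factor of blood vessels (chr17:46016993-46032369), was at 4.83, 13.8 and 17.4 CPM in naive and at 29.8, 35.9, 54 and 59.9 CPM at IM3h, again with no overlap (log2 fold change 1.96 ± 0.44 (SE), adjusted p = 0.0126). Hif1a, the oxygen-regulated subunit of HIF (chr12:73901375-73947530), went from 7.59, 14.01 and 15.6 CPM to 29.1, 29.8, 35 and 40.5 CPM (log2 fold change 1.49 ± 0.35 (SE), adjusted p = 0.0148).

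Slc2a1, the widespread glucose transporter (chr4:119108711-119137983), was at 2.67, 7 and 14.9 CPM in naive glia and at 6.45, 38.3, 47 and 63.3 CPM at IM3h. One operated library lay within the naive range and the others were far above it, and the gene missed the threshold (log2 fold change 2.30 ± 0.70 (SE), adjusted p = 0.0502). DESeq2 called it, with an adjusted p of 0.00344. Both other transporters had positive values without a call, Slc2a3 at a log2 fold change of 0.95 ± 0.50 and Slc16a3 at 0.97 ± 0.66.

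The members that fell in the glial fraction were Aldoa and Egln3. Aldoa, the aldolase that splits fructose 1,6-bisphosphate (chr7:126795234-126800751), was at 339, 402 and 413 CPM in naive and at 126, 128, 139.7 and 155 CPM at IM3h, so that all operated libraries lay far below the naive ones (log2 fold change -1.43 ± 0.21 (SE), adjusted p = 0.00122). Egln3, a prolyl hydroxylase that is itself a HIF target in many cells, was at 33.3, 51.7 and 63.4 CPM in naive and at 11.9, 14.1, 18.6 and 21.9 CPM at IM3h (log2 fold change -1.51 ± 0.33 (SE), adjusted p = 0.0101). The closely related hydroxylase Egln1 had a value of -0.30 ± 0.35 and no call. The remaining glycolytic enzymes, from Hk1 and Gpi1 through Pkm and Ldha, had log2 fold changes between -1.35 (Pfkm) and 0.38 (Hk1), none with a call in edgeR.

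Markers of several cell types in the pulldown moved with these results. The 8 smooth muscle markers summed to 5029 to 7599 CPM in naive RiboTag and to 1903 to 4518 CPM at IM3h, with 4 of the 8 called lower and none at 0, and Aldoa was higher in ME than in RiboTag in naive mice. Of the 8 glial markers 1 was called higher and 3 lower, at a summed 1330 to 2858 CPM against 1654 to 2008 CPM in naive. The 2858 CPM was library 4, while libraries 1, 2 and 3 had 1626, 1366 and 1330 CPM, below every naive library. Library 4 had counts in 15829 genes, against 18624 to 19311 in these libraries. Of the 4 mesothelium markers 3 were lower, at 6.97 to 68.2 CPM against 84.3 to 239 CPM. Fibroblast markers were lower in 2 of 4, at 155 to 219.9 CPM against 389 to 480 CPM, and markers of interstitial cells of Cajal in 1 of 4, at 63.4 to 149 CPM against 162 to 226 CPM. Of the erythrocyte markers 1 of 4 was lower. Macrophage and monocyte markers were higher in 1 of 8, at 48.7 to 97.1 CPM against 70.2 to 116 CPM. Endothelium markers were higher in 1 of 6 (22.4 to 52.9 CPM against 18.3 to 35.8 CPM) and neuron markers in 1 of 8 (726 to 1773 CPM against 614 to 1255 CPM). The part of these cells in the changes of the members was not tested, and in bulk RNA fewer cells of a type cannot be told apart from less RNA per cell. All 6 calls disappeared when the 4 RiboTag groups were fitted together, where only 0.19% of all genes were called, and scaling by Actb, Hsp90ab1 and Rplp1 left 1 call higher and 2 lower, with the calls of Hk2, Vegfa and Hif1a lost. The call of Hif1a was also lost without IM3h library 3 or naive library 3, and that of Egln3 without naive library 2.

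Short motifs that HIF can bind were looked for in the promoters of the members, because many of these genes are known HIF targets. The motif core was ACGTG or GCGTG on either strand, in windows from 250 bases before to 50 bases after each start in RefSeq (GRCm38.p6, the assembly of mm10), where CACGTG counts as 2 overlapping cores. Windows were found for 30 members, of which 28 (93.3%) held at least 1 core in at least 1 of their windows, against 46.7% of 27025 genes with a window. Gpi1 and Tpi1 held none, and Vegfa, Hk1, Aldoa, Pkm and Mxi1 held none in the window at their outermost start. Counted in the window of each gene with the most CpG dinucleotides, the median was 24 over the members and 8 over all genes (each core contains a CpG). Stretches of 120 bases upstream of a start, read 5′ to 3′ along the gene's strand, are shown for Pfkfb3, Hk2, Hif1a and Vegfa, which rose at IM3h in both fractions. For the first 3 genes the stretch with the most cores is shown, which for Pfkfb3 lies in the inner window with 4 cores and not in the outer window with 1, and for Vegfa the bases next to its outer start. Capitals mark the cores. The Pfkfb3 stretch lies at chr2:11502118-11502237 (minus strand), the Hk2 stretch at chr6:82774455-82774574 (minus strand), the Hif1a stretch at chr12:73907704-73907823 (plus strand) and the Vegfa stretch at chr17:46032378-46032497 (minus strand). The starts used for Pfkfb3 and Hif1a lie inside the annotated genes.
Pfkfb3: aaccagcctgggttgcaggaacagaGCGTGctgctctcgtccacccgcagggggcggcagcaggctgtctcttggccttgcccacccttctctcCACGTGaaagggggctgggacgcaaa
Hk2: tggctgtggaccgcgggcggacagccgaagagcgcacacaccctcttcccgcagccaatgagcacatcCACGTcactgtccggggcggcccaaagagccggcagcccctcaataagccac
Hif1a: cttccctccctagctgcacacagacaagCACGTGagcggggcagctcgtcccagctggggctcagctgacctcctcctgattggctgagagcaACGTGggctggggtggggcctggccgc
Vegfa: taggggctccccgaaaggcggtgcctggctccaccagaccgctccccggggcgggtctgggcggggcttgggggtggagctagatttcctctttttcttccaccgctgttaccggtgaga
The Pfkfb3 stretch holds a palindromic CACGTG and a separate core, the Hk2 stretch 1 core, the Hif1a stretch a CACGTG and a separate core, and the Vegfa stretch none. These are matches of letters and do not show binding.

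**Figure D1:**
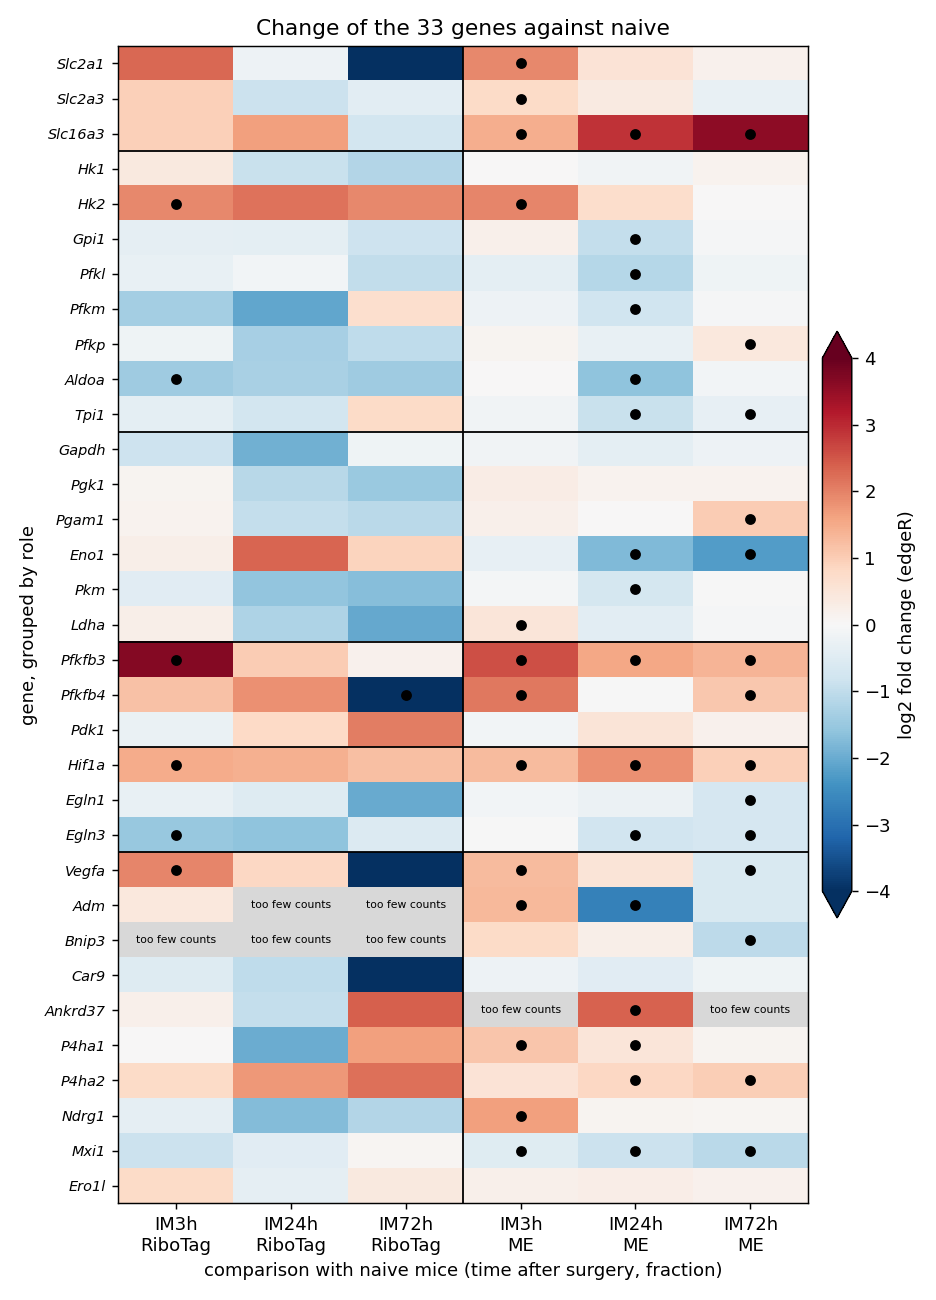
Log2 fold change against naive of the 33 genes (rows, grouped by role: transport, upper glycolysis, lower glycolysis, regulatory enzymes, oxygen sensing, other targets) in RiboTag and ME at IM3h, IM24h and IM72h (columns), with black dots for an adjusted p under 0.05 in edgeR and grey for too few counts. The rises at IM3h include Hk2, Pfkfb3, Vegfa and Hif1a in both fractions, and 7 of the 10 lower calls at IM24h in ME are enzymes of the glycolytic chain.

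In whole ME at IM3h, the 3 transporters, Hk2, Ldha, Pfkfb3, Pfkfb4, Hif1a and several other HIF targets rose. The median SE of a member's log2 fold change was 0.14, against 0.35 in RiboTag. Of 32 members tested at IM3h against naive, 12 rose and 1 fell, where 32.7% of all 15333 genes were called (19.3% higher and 13.4% lower), and the median log2 fold change was 0.22 over the members and 0.00 over all genes. All 3 transporters rose. Slc2a1 was at 12.1, 14.1 and 15.9 CPM in naive and at 44.7, 50.2 and 60.3 CPM at IM3h (log2 fold change 1.92 ± 0.16 (SE), adjusted p = 1.67e-05). Slc16a3, the exporter of lactate, rose by 1.46 ± 0.39 on the log2 scale and Slc2a3, a high-affinity glucose transporter, by 0.78 ± 0.18. Among the enzymes of the chain, only Hk2 and Ldha were called. Hk2 was at 28.8, 34.2 and 41.6 CPM in naive and at 127, 127 and 135 CPM at IM3h (log2 fold change 1.94 ± 0.15 (SE), adjusted p = 8.71e-06), and Ldha, which turns pyruvate into lactate, at 198, 203 and 214 CPM and 259.5, 277 and 305 CPM (log2 fold change 0.50 ± 0.11 (SE), adjusted p = 0.00621). The other 12 enzymes lay between -0.39 (Pfkl) and 0.29 (Pgk1) on the log2 scale.

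Both bifunctional phosphofructokinase-2 genes rose in ME at IM3h. Pfkfb3 was at 11.5, 15.5 and 19.3 CPM in naive and 75.3, 94.5 and 95.9 CPM at IM3h (log2 fold change 2.57 ± 0.19 (SE), adjusted p = 7.7e-06), and Pfkfb4 at 2.8, 4.84 and 6.53 CPM and 17, 20.01 and 23.5 CPM (log2 fold change 2.10 ± 0.28 (SE), adjusted p = 0.000316). For both genes the operated libraries all lay above the naive ones. Pdk1, a pyruvate dehydrogenase kinase, had a value of -0.10 ± 0.34 and no call. Hif1a rose from 32.1, 32.9 and 37.3 CPM to 78, 79.5 and 81.8 CPM (log2 fold change 1.27 ± 0.12 (SE), adjusted p = 2.85e-05), whereas Egln1 and Egln3 had values of -0.11 ± 0.14 and -0.01 ± 0.10 with no call.

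Among the other HIF targets in ME at IM3h, Ndrg1, Adm, Vegfa and P4ha1 rose and Mxi1 fell. Ndrg1, a stress-responsive gene that is abundant in Schwann cells, was at 33.4, 37.5 and 39.9 CPM in naive and at 102, 106 and 128 CPM at IM3h (log2 fold change 1.65 ± 0.13 (SE), adjusted p = 9e-06). Adm, which encodes the vasodilator peptide adrenomedullin, was at 5.32, 5.81 and 6.66 CPM and 8.48, 15.6 and 17.9 CPM (log2 fold change 1.29 ± 0.30 (SE), adjusted p = 0.00854). For both genes every operated library lay above every naive one. Vegfa rose by 1.25 ± 0.18 on the log2 scale, and P4ha1, a subunit of the enzyme that hydroxylates collagen proline, rose by 1.12 ± 0.16. Mxi1, an antagonist of Myc, fell by 0.47 ± 0.15 on the log2 scale, and its call was lost without library 1 or 2 of either group. Car9, P4ha2 and Ero1l were not called, Bnip3 had a value of 0.78 ± 0.30 without a call and of 1.07 with a call once near-identical or overlapping transcripts were added (12233 ME counts against 804 for Bnip3), and Ankrd37 had too few counts for the test. In RiboTag at IM3h, Bnip3 with these transcripts added had a value of 1.30 with a call. Over all RiboTag libraries they held 9476 counts against 144 for Bnip3, mainly in a lincRNA and an antisense gene. The values with them added are thus mostly those of other loci.

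Other genes of the pathway, listed by function, moved in the same comparison. Of 10 other genes of HIF subunits and oxygen sensing, 5 rose, led by Egln2, Epas1 and Cited2 at log2 fold changes of 0.89, 0.86 and 0.75. Of 30 other hypoxia targets tested, 13 rose, led by Hmox1 (5.55), which degrades heme, Rab20 (4.25) and the clock repressor Bhlhe40 (2.82), and 3 fell, namely Ppp1r3c (-1.60), Plod1 (-0.74) and Bnip3l (-0.48). Of 27 other glycolytic isozymes, transporters and branch enzymes tested, 2 rose, among them the lactate carrier Slc16a1 (0.64), and 7 fell, led by Tigar (-1.45), Slc2a4 (-1.09) and Pdk2 (-0.86). In the glial fraction at IM3h, 5 of 29 other hypoxia targets rose, led by Hmox1 (4.54), the transferrin receptor Tfrc (2.60) and Angptl4 (1.86), and 4 fell, led by Ppp1r3c (-2.99), Vegfb (-2.44) and Fam162a (-1.75). None of the 9 oxygen-sensing genes tested passed in the glial fraction, and of 26 other glycolytic genes Slc16a1 rose (0.99) and 2 fell, among them Slc2a4 (-1.62).

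Scaling choices moved the ME counts at IM3h. With library totals alone, which shifted the median of all genes by -0.26, 9 members rose and 2 fell, and with scaling by Actb, Hsp90ab1 and Rplp1, which shifted it by -0.41, 9 rose and 11 fell. The rises of Slc2a1, Hk2, Pfkfb3, Pfkfb4, Hif1a, Vegfa, P4ha1 and Ndrg1 were called under every alternative run, those of Ldha, Slc2a3, Slc16a3 and Adm were not, and every called rise was positive under every scaling. Leaving out naive library 3 ended the calls of Slc2a3 and Slc16a3, and leaving out IM3h library 2 that of Slc16a3. The smooth muscle markers summed to 16584 to 19838 CPM at IM3h, with 3 of 8 called lower than in naive, and the neutrophil markers to 22.6 to 32.9 CPM against 3.99 to 7.14 CPM in naive. Mesothelium markers were lower in 4 of 4, at 1.77 to 11.7 CPM against 86.7 to 126 CPM, and fibroblast markers in 3 of 4, at 781 to 870 CPM against 1538 to 1651 CPM. Markers of interstitial cells of Cajal were lower in 3 of 4, at 256 to 268 CPM against 366 to 372 CPM. Of the 8 glial markers 2 were higher and 3 lower, of the 8 macrophage and monocyte markers 3 higher and 2 lower, and of the 8 neuron markers 1 each. Endothelium markers were higher in 1 of 6, at 43.4 to 51.4 CPM against 33.1 to 34.9 CPM. Proliferating-cell markers were higher in 1 of 4, at 22.6 to 25.6 CPM against 10.8 to 19.1 CPM. The part of these cells in the rises was not tested.

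**Figure D2:**
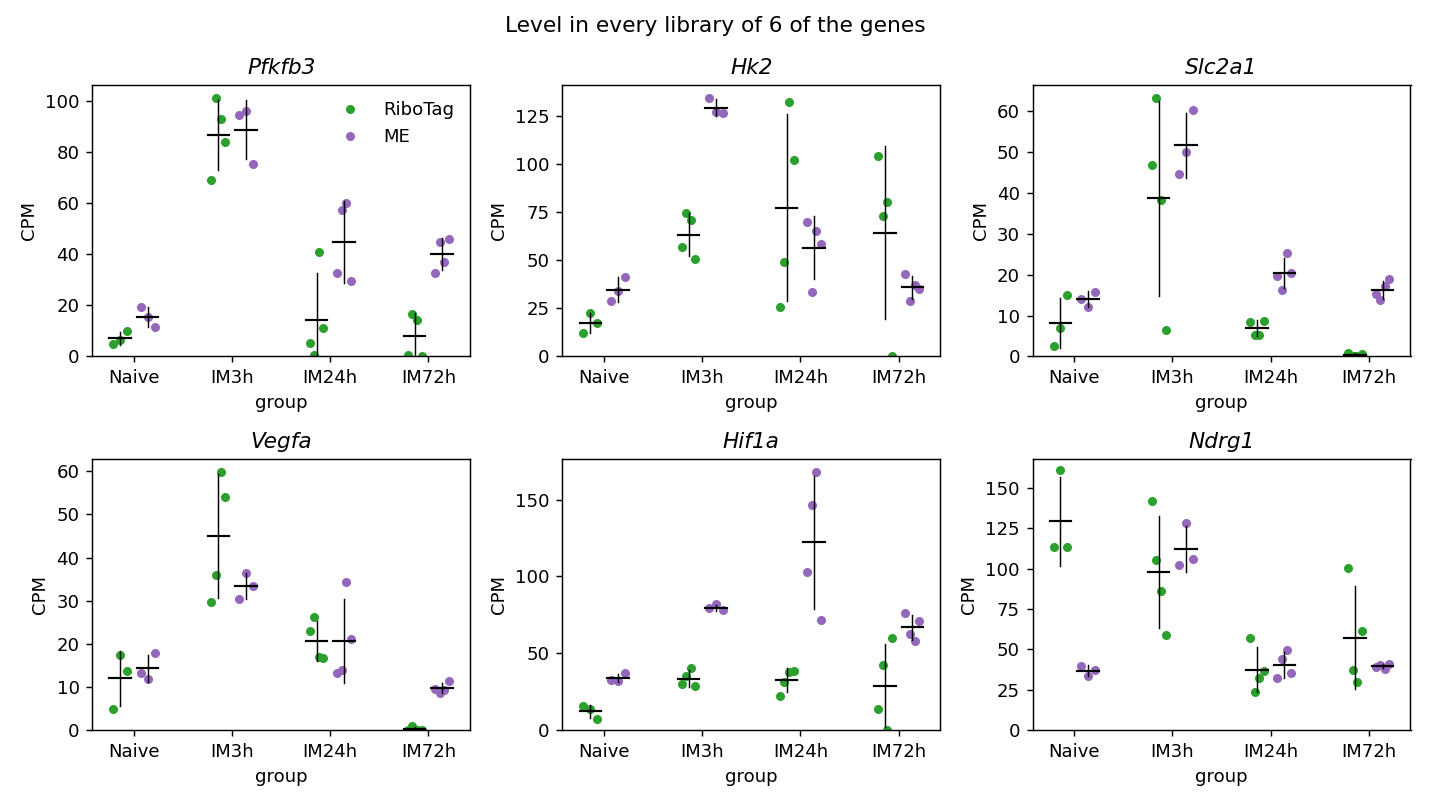
CPM (vertical axes, from 0) of 6 genes in every library of the RiboTag (green) and ME (purple) fractions by group, with black bars for the mean and lines for ± 1 SD. In both fractions Pfkfb3, Hk2, Vegfa and Hif1a lay higher at IM3h than in naive, and Ndrg1 was called higher in ME and not called in RiboTag.

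Whether a member responded differently in glia and in whole tissue was tested as the interaction of fraction and treatment. At IM3h, 2 of 33 members differed, both lower in RiboTag, where 1.65% of all 17646 genes were called (0.952% higher and 0.703% lower). Ndrg1 was at 113, 114 and 161 CPM in naive RiboTag and at 59, 85.8, 105 and 142 CPM at IM3h (log2 fold change -0.34 ± 0.30, no call), while ME rose as given above, and the difference in response was -1.90 ± 0.36 (SE), adjusted p = 0.0158. For Aldoa the difference was -1.37 ± 0.22 (SE), adjusted p = 0.0053, with ME libraries at 793, 827 and 846 CPM in naive and 746, 819 and 859 CPM at IM3h, which overlap. Egln3 had the same pattern with a difference of -1.41 ± 0.35 that missed the threshold in edgeR (adjusted p = 0.0553) and was called by DESeq2 (adjusted p = 0.00833). For Pfkfb3 the difference of 1.19 ± 0.37 missed it too (adjusted p = 0.128, 95% interval 0.40 to 1.98). For Hk2, Hif1a and Slc2a1 the 95% intervals of the difference ran over -0.62 to 0.77, -0.42 to 1.04 and -1.29 to 2.20. The fractions came from different mouse lines here, so the naive and IM3h libraries of the fractions came from different animals, and line and fraction cannot be told apart. Both calls were lost with scaling by Actb, Hsp90ab1 and Rplp1, and that of Ndrg1 also with library totals alone and without ME library 2 of either group.

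**Figure D3:**
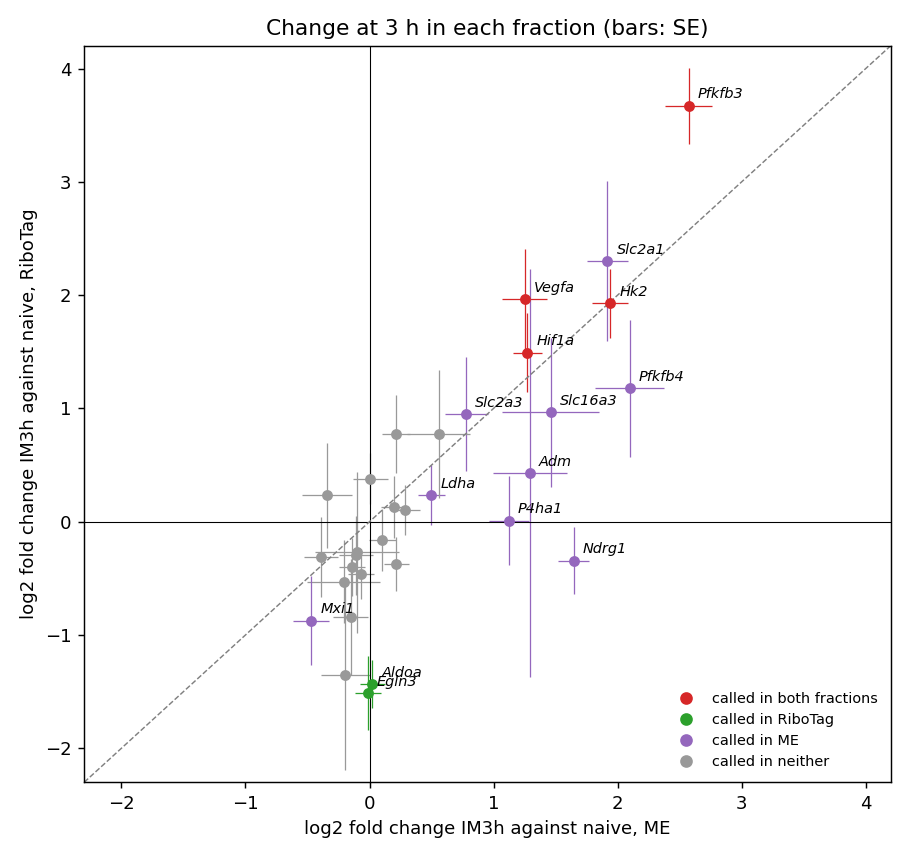
Log2 fold change at IM3h against naive in RiboTag (vertical axis) and ME (horizontal axis) for the members tested in both fractions, with SE bars, colours for the fractions in which edgeR called the gene, and a dashed line for equal change. Pfkfb3, Hk2, Vegfa and Hif1a were called in both fractions, and Ndrg1 and Aldoa lie far below the line.

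At IM24h, whole ME showed lower levels along the glycolytic chain together with higher levels of Slc16a3, Hif1a and Pfkfb3. Of 33 members, 6 were higher and 10 lower than in naive, where 29% of all 16328 genes were called (15.6% higher and 13.4% lower), and the median log2 fold change was -0.01 over the members and 0.02 over all genes. In the upper part of the chain 5 of 8 genes were lower. Aldoa was at 793, 827 and 846 CPM in naive and at 191, 245, 299.9 and 333 CPM at IM24h (log2 fold change -1.62 ± 0.20 (SE), adjusted p = 0.000371). Gpi1, the isomerase of glucose 6-phosphate, was at 167, 183 and 193 CPM and 74.5, 88.4, 100.01 and 115 CPM (log2 fold change -0.94 ± 0.17 (SE), adjusted p = 0.00289). Pfkl, the liver-type phosphofructokinase, was at 29.1, 29.1 and 32 CPM and 11.1, 13.3, 13.8 and 15.9 CPM (log2 fold change -1.15 ± 0.19 (SE), adjusted p = 0.0017). All libraries at IM24h lay below all naive ones for Aldoa, Gpi1 and Pfkl. The muscle-type Pfkm fell by 0.81 ± 0.18 and triose phosphate isomerase, Tpi1, by 0.89 ± 0.13 on the log2 scale, while Hk1, Hk2 and Pfkp were not called.

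In the lower part of the chain in ME at IM24h, Pkm and Eno1 were lower and Gapdh, Pgk1, Pgam1 and Ldha were not called. Pkm, pyruvate kinase, was at 346, 372 and 378 CPM in naive and at 178, 186, 264 and 272 CPM at IM24h (log2 fold change -0.70 ± 0.19 (SE), adjusted p = 0.0188). Eno1, enolase, was at 36.6, 53.3 and 69.7 CPM and 11.6, 15.6, 17.9 and 18.4 CPM (log2 fold change -1.76 ± 0.25 (SE), adjusted p = 0.000745). The last 300 bases of Eno1 matched Eno1b over up to 300 bases and at an identity of up to 100%. Eno1b drew 25290 ME counts against 3262 for Eno1, so reads can be split between both genes. With the copies added the value was -0.90 and still called.

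Slc16a3 rose the most in ME. It was at 1.51, 2.06 and 3.87 CPM in naive and at 8.38, 8.73, 27.8 and 31.2 CPM at IM24h (log2 fold change 2.89 ± 0.59 (SE), adjusted p = 0.00495), with 2 libraries near 8 and 2 near 30 CPM, and the call was lost with limma-voom. Hif1a reached 71.4, 103, 146 and 168 CPM (log2 fold change 1.83 ± 0.28 (SE), adjusted p = 0.00102) and Pfkfb3 29.5, 32.6, 57.1 and 59.8 CPM (log2 fold change 1.53 ± 0.30 (SE), adjusted p = 0.00441), in both cases above every naive library. The collagen hydroxylase genes P4ha2 (0.82 ± 0.20) and P4ha1 (0.48 ± 0.16) were called higher, the latter with an adjusted p of 0.0475, and its call was made in 5 of 11 alternatives and lost without any library except IM24h library 2. Ankrd37, a small ankyrin repeat protein gene, was higher by 2.35 ± 0.72 at 1.80 to 5.37 CPM, with the call lost with limma-voom and without IM24h library 1 or 3 or any naive library. Adm fell from 5.32, 5.81 and 6.66 CPM to 0, 0.7, 1.38 and 1.55 CPM (log2 fold change -2.70 ± 0.83 (SE), adjusted p = 0.0333), and its call was lost without IM24h library 2 or any naive library. Egln3 (-0.78 ± 0.15) and Mxi1 (-0.85 ± 0.23) were lower as well. The call of Mxi1 was lost without naive library 1 or 2, that of P4ha2 without naive library 2 or 3, and that of Pkm without IM24h library 1 or naive library 1 or 3, while Pfkm lost its call without naive library 3. Slc2a1 (0.54 ± 0.22), Hk2 (0.70 ± 0.25) and Vegfa (0.52 ± 0.34), which had risen at IM3h, were not called.

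Markers of other cell types in ME moved with these results. The 8 smooth muscle markers summed to 22593 to 23765 CPM in naive and to 3271 to 10856 CPM at IM24h, with 6 of the 8 called lower. The 8 macrophage and monocyte markers went from 149 to 172 CPM to 377 to 972 CPM with 5 called higher, and the 6 neutrophil markers from 3.99 to 7.14 CPM to 55.9 to 226 CPM with 5 called higher. No marker of these 3 lists was at 0 in ME. Proliferating-cell markers were higher in 2 of 4, at 57.4 to 86.5 CPM against 10.8 to 19.1 CPM, and endothelium markers in 2 of 6, at 50.9 to 62.1 CPM against 33.1 to 34.9 CPM. Of the epithelium markers 2 of 4 were lower, and of the mesothelium markers 1 of 4. The part of these cells in the lower glycolytic enzymes and the higher Slc16a3 was not tested. With library totals alone the median of all genes shifted by 0.66 and 16 members were higher and 2 lower, namely Aldoa and Eno1, while with scaling by Actb, Hsp90ab1 and Rplp1 it shifted by -0.35 and 3 were higher and 8 lower.

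At IM72h most enzymes of the chain in ME were not called against naive, while Slc16a3 was high. Of 32 members tested against naive, 7 were higher and 7 lower, where 57.5% of all 16592 genes were called (29.3% higher and 28.3% lower), and the median log2 fold change was -0.03 over the members and 0.02 over all genes. Slc16a3 was at 23.8, 25.7, 27.3 and 51.2 CPM, far above the naive 1.51 to 3.87 CPM (log2 fold change 3.59 ± 0.37 (SE), adjusted p = 1.76e-05). Pgam1, phosphoglycerate mutase, was at 223, 249 and 251 CPM in naive and at 467, 489.5, 505 and 509.7 CPM at IM72h (log2 fold change 1.001 ± 0.11 (SE), adjusted p = 2.34e-05), the only enzyme of the chain with a rise of this size. Pfkfb3 (1.34 ± 0.19), Pfkfb4 (1.07 ± 0.26), Hif1a (0.94 ± 0.13) and P4ha2 (0.98 ± 0.17) were higher, as was Pfkp (0.42 ± 0.10), whose value was -0.18 with scaling by the 3 reference genes. Aldoa was at 651, 751, 837 and 873 CPM (log2 fold change -0.11 ± 0.13, no call), and Gpi1, Pfkl, Pfkm, Hk1, Hk2, Pkm and Ldha lay between -0.18 and 0.15 on the log2 scale with no call.

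The lower members in ME at IM72h were 2 hydroxylases, 2 enzymes of the chain and 3 targets. Egln1 was at 90.8, 104 and 121 CPM in naive and 57.5, 62.4, 69.3 and 78.6 CPM at IM72h (log2 fold change -0.68 ± 0.14 (SE), adjusted p = 0.00166), and Egln3 at 124, 125 and 131 CPM and 74.6, 81.7, 82.6 and 86.9 CPM (log2 fold change -0.67 ± 0.10 (SE), adjusted p = 0.000264). Mxi1 fell by 1.08 ± 0.13, Vegfa by 0.60 ± 0.19 and Tpi1 by 0.33 ± 0.10 on the log2 scale, where Tpi1 was 0.28 with library totals alone. Eno1 was lower by 2.23 ± 0.21, but not called at -0.28 with its near-identical copies added. Bnip3, a mitophagy receptor gene, was lower at -1.04 ± 0.32 and higher at 0.42 with its copies and an overlapping antisense transcript added, so no direction can be given for it. With library totals alone 19 members were higher and 2 lower, and with scaling by the 3 reference genes 2 were higher and 19 lower, as the median of all genes shifted by 0.62 and -0.58. The call of Vegfa was lost without IM72h library 2 or 3 or naive library 3, that of Tpi1 without IM72h library 3 and that of Bnip3 without naive library 1. Smooth muscle markers were lower in 4 of 8 at a summed 12378 to 21139 CPM, and macrophage and monocyte markers higher in 8 of 8 at 486 to 585 CPM. Neutrophil markers were higher in 6 of 6 at 40.4 to 75.6 CPM against 3.99 to 7.14 CPM in naive, and markers of proliferating cells in 4 of 4 at 209 to 261 CPM against 10.8 to 19.1 CPM. Fibroblast markers were higher in 2 of 4 at 2856 to 3332 CPM against 1538 to 1651 CPM, while those of interstitial cells of Cajal were lower in 4 of 4 and of mesothelium in 3 of 4. Of the 8 glial markers 4 were higher and 2 lower, at 176 to 328 CPM against 127 to 152 CPM. Of the 8 neuron markers 2 were higher and 3 lower, at 434 to 525 CPM against 565 to 579 CPM. Endothelium markers were higher in 3 of 6. The part of these cells in the values of the members was not tested.

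Between IM24h and IM72h, within the same mouse line, 8 of the 14 enzymes of the chain rose. Of 33 members, 9 rose and 8 fell from IM24h to IM72h, where 38.5% of all 16281 genes were called (18.6% higher and 19.9% lower), and the median log2 fold change was 0.10 over the members and 0.01 over all genes. Aldoa rose from 191, 245, 299.9 and 333 CPM at IM24h to 651, 751, 837 and 873 CPM at IM72h (log2 fold change 1.51 ± 0.19 (SE), adjusted p = 0.000178), and Gpi1 (0.88 ± 0.15), Pfkl (0.97 ± 0.19), Pfkm (0.75 ± 0.16), Pfkp (0.73 ± 0.13), Tpi1 (0.55 ± 0.11), Pgam1 (0.98 ± 0.14) and Pkm (0.67 ± 0.22) rose with it, as did Adm (2.09 ± 0.74). The members that fell were Ankrd37 (-1.86 ± 0.50), Vegfa (-1.11 ± 0.29), Hif1a (-0.90 ± 0.24), Hk2 (-0.69 ± 0.22), Slc2a3 (-0.66 ± 0.18), Egln1 (-0.44 ± 0.16) and P4ha1 (-0.38 ± 0.13), together with Bnip3 (-1.28 ± 0.36), whose call was lost with its copies added. The smooth muscle markers rose in the same comparison, to a summed 12378 to 21139 CPM with 5 of 8 called higher. Fibroblast markers were higher in 3 of 4 (782 to 1824 CPM at IM24h and 2856 to 3332 CPM at IM72h), proliferating-cell markers in 3 of 4 (57.4 to 86.5 CPM and 209 to 261 CPM) and glial markers in 4 of 8, while markers of interstitial cells of Cajal were lower in 3 of 4, of neurons in 4 of 8 and of neutrophils in 3 of 6. The part of these cells in the changes of the members was not tested. Scaling by the 3 reference genes left 2 members higher, Aldoa and Pgam1, and 6 lower. Egln1 was called in 1 of the 8 fits that leave out a library, the one without IM24h library 4, and P4ha1 in 2, those without IM24h library 1 or 2. The call of Adm was lost without IM24h library 2 or any IM72h library, that of Hk2 without IM24h library 1 or 3 or IM72h library 2, 3 or 4, and that of Pkm without IM24h library 1 or 2 or IM72h library 2 or 4. Ankrd37 and Slc2a3 lost theirs without IM72h library 2, and Bnip3 without IM72h library 3.

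**Figure D4:**
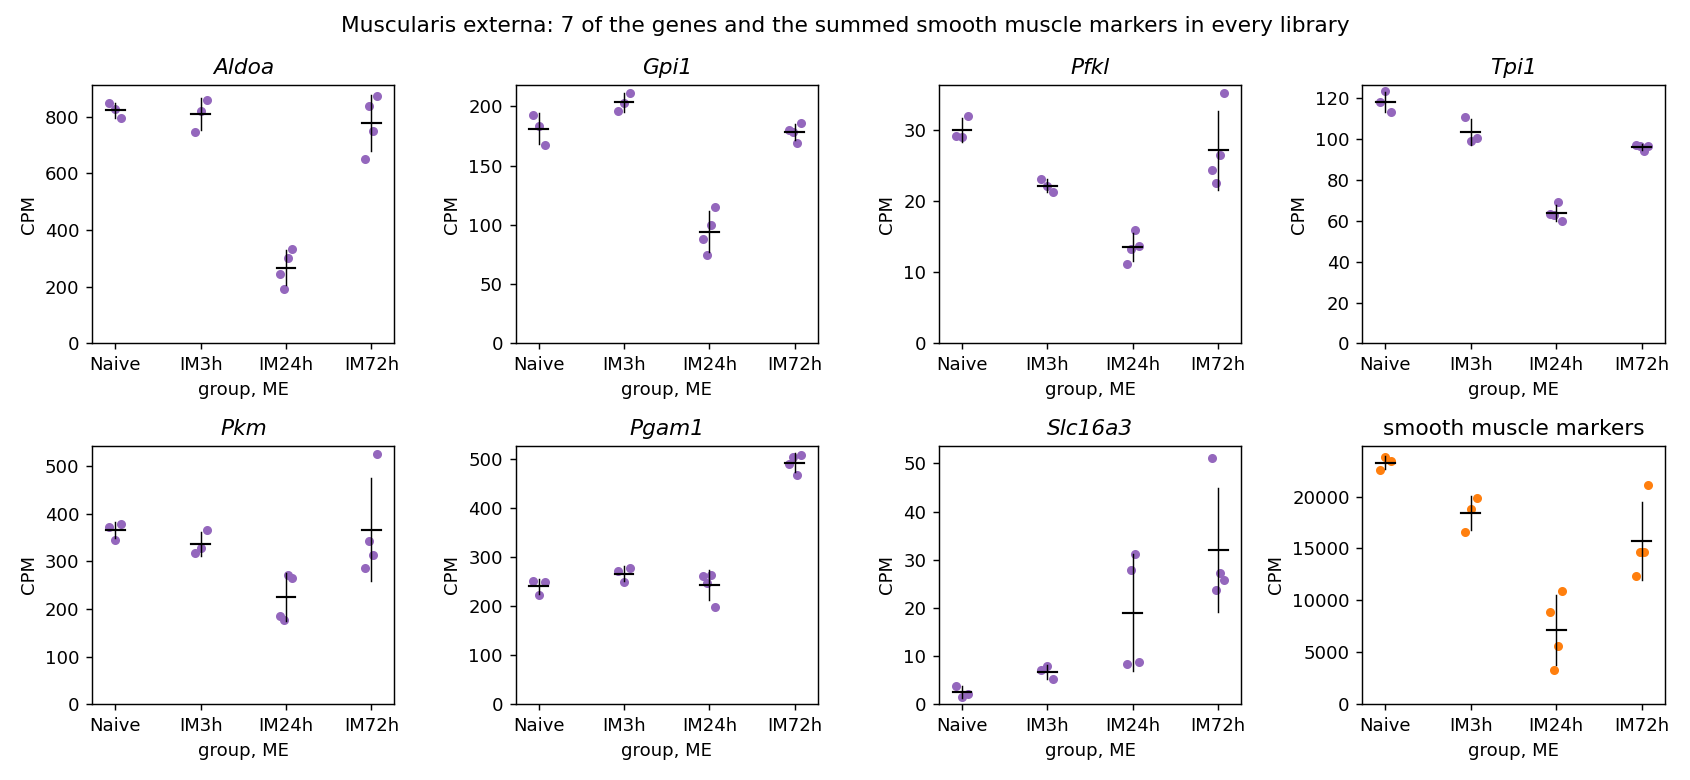
CPM (vertical axes, from 0) of 7 genes in every ME library by group, and in the last panel the summed CPM of 8 smooth muscle markers, with black bars for the mean and lines for ± 1 SD. Aldoa, Gpi1, Pfkl, Tpi1 and Pkm are lowest at IM24h, where the smooth muscle sum is also lowest, Pgam1 is highest at IM72h and Slc16a3 is high at IM24h and IM72h.

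At IM24h in ME, 16 of 28 other glycolytic genes were lower and none higher in edgeR, led by the muscle enolase Eno3 (-4.71), pyruvate carboxylase Pcx (-2.81) and muscle glycogen phosphorylase Pygm (-2.69). At IM72h, 5 of 28 were higher, led by Hk3 (2.47), a hexokinase of myeloid cells, and 13 lower, led again by Eno3 (-2.46) and Pcx (-2.36). Of the other hypoxia targets, 12 of 30 rose and 5 fell at IM24h, and at IM72h 14 of 31 rose and 7 fell. Hmox1 led both times (4.46 and 3.74), and at IM72h the collagen crosslinking enzyme Lox (3.54) and the secreted glycoprotein Stc2 (2.89) came next. Among the 10 oxygen-sensing genes, Epas1 was the sole call at IM24h (0.78), whereas IM72h had 4 higher and 2 lower, with Hif1an (0.88) and Vhl (0.80) highest and Cited2 (-1.96) lowest. From IM24h to IM72h, 9 of 28 other glycolytic genes rose and none fell in edgeR, among them Fbp2 (3.25) and Pygm (2.32), and of the oxygen-sensing genes Hif3a (2.08) and Egln2 (0.36) rose and Cited2 (-1.78) fell.

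In the glial fraction at the later times the libraries spread much more. The median SE of a member's log2 fold change against naive was 0.35 at IM3h, 0.76 at IM24h and 1.29 at IM72h. At IM24h none of 31 members tested passed in edgeR, where 0.497% of all 15304 genes were called (0.366% higher and 0.131% lower), and 11 had an unadjusted p under 0.05 (3 higher, 8 lower), as did 2015 of all genes. DESeq2 called Hk2 and Eno1 higher and Aldoa and Ndrg1 lower, and limma-voom called Aldoa and Ndrg1 lower. For Eno1 the edgeR value was 2.32, and 0.16 with its near-identical copies added. Hk2 was at 25.9, 49.5, 102 and 133 CPM at IM24h, above every naive library (log2 fold change 2.17 ± 0.59 (SE), adjusted p = 0.115), and Aldoa at 99.3, 129, 179 and 210.5 CPM, below every naive library (log2 fold change -1.29 ± 0.35 (SE), adjusted p = 0.124). Ndrg1 was at 23.7, 32.4, 36.9 and 56.9 CPM against 113 to 161 CPM in naive (log2 fold change -1.75 ± 0.41 (SE), adjusted p = 0.0762). Pfkfb3 was at 0.409, 5.16, 11.1 and 40.8 CPM, of which 2 libraries lay above, 1 within and 1 far below the naive range (log2 fold change 1.01 ± 1.23). Hif1a was at 22.1, 31.5, 37.7 and 38.8 CPM, above every naive library (log2 fold change 1.41 ± 0.62, adjusted p = 0.347). Smooth muscle markers summed to 1399 to 2820 CPM at IM24h against 5029 to 7599 CPM in naive, with 3 of 8 called lower. Glial markers summed to 798 to 967 CPM against 1654 to 2008 CPM, with none of 8 called in edgeR. Macrophage and monocyte markers summed to 129.6 to 351 CPM against 70.2 to 116 CPM, with 1 of 8 called higher. Proliferating-cell markers summed to 54.9 to 237 CPM against 17.9 to 24.3 CPM, with 1 of 4 called higher. The part of these cells in the values of the members was not tested.

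The direct comparison of the operated glial groups gave no call either. From IM3h to IM24h none of 32 members tested passed in edgeR, where 1.9% of all 14193 genes were called (0.965% higher and 0.937% lower), and 12 had an unadjusted p under 0.05 (1 higher, 11 lower), as did 2181 of all genes. Pfkfb3 was at 69.1 to 101 CPM at IM3h and 0.409 to 40.8 CPM at IM24h, without overlap (log2 fold change -2.56 ± 0.81 (SE), adjusted p = 0.13), and limma-voom called it. DESeq2 called Slc2a1 (-2.38 ± 0.69 in edgeR), Slc2a3 (-1.70 ± 0.58) and Ndrg1 (-1.31 ± 0.40) lower and Eno1 higher (2.18 ± 0.66 in edgeR, and 0.88 without a call with its copies added). Hk2 (0.35 ± 0.46, 95% interval -0.65 to 1.34) and Hif1a (0.02 ± 0.42, 95% interval -0.90 to 0.93) had values near 0 with wide intervals. Glial markers summed to 1330 to 2858 CPM at IM3h and 798 to 967 CPM at IM24h, with 1 of 8 called lower and none at 0. Among macrophage and monocyte markers 2 of 8 were called higher (48.7 to 97.1 CPM and 129.6 to 351 CPM), among proliferating-cell markers 1 of 4 and among smooth muscle markers 1 of 8, and their part was not tested.

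At IM72h, 1 of 31 members tested in RiboTag was called, lower, where 16.1% of all 13572 genes were called (1.05% higher and 15.1% lower). This was Pfkfb4, at 3.56, 4.29 and 7.83 CPM in naive and a single count in the 4 IM72h libraries together (edgeR adjusted p = 0.0137). Its level was 37.0 times lower, with an exact 95% counting interval of 6.52 to 1470 times. Slc2a1, with 3 counts in the group, was 19.5 times lower (6.58 to 95.3) and Vegfa, with 2 counts, 43.1 times lower (11.8 to 358), and neither was called in edgeR (adjusted p = 0.0697 and 0.0576), while DESeq2 called Vegfa (adjusted p = 0.0253). These intervals cover counting error only. Adm was at 0 in the 4 libraries against 18 counts in naive, at least 1.23-fold lower by the exact 95% counting limit. A group with 3 counts would have been 1.68-fold lower. Bnip3, not listed in the IM72h table and taken as 0, had 10 counts in naive, and with its copies added it had a log2 fold change of 2.30 with a call in edgeR, so no direction can be given for it. Aldoa was at 78.7, 138, 152 and 209.8 CPM, again below every naive library (log2 fold change -1.41 ± 0.45 (SE), adjusted p = 0.0602). The counts of several members lay nearly all in 1 library, such as Egln3 at 0, 0, 0.44 and 134 CPM, Ero1l at 0, 0, 0.44 and 77 CPM and Ankrd37 at 0, 0, 0 and 32 CPM.

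Depth and composition moved with the IM72h values in RiboTag. The 8 glial markers summed to 184 to 1462 CPM at IM72h and 1654 to 2008 CPM in naive, with 2 of 8 called lower. The 184 CPM was library 2, within the 176 to 328 CPM of whole ME at IM72h, and its smooth muscle sum was 8406 CPM. Libraries 1, 3 and 4 had glial sums of 1462, 954 and 1220 CPM and smooth muscle sums of 4142, 3059 and 2923 CPM. Smooth muscle markers summed to 5029 to 7599 CPM in naive, with 1 of 8 called higher and 1 lower at IM72h. AY036118 took 58.0% or more of every IM72h library. Proliferating-cell markers summed to 125 to 336 CPM against 17.9 to 24.3 CPM in naive, with 1 of 4 called higher. Macrophage and monocyte markers summed to 204 to 381 CPM against 70.2 to 116 CPM, with 1 of 8 called higher. Of the endothelium markers 2 of 6 were called lower. This list summed to 24.2 to 111 CPM against 18.3 to 35.8 CPM in naive, and its median log2 fold change was 1.08. Of the mesothelium markers 1 of 4 was called lower, at a summed 0 to 53.2 CPM against 84.3 to 239 CPM. Their part in the low counts of Pfkfb4, Slc2a1 and Vegfa was not tested. With library totals alone the median of all genes was -2.13 and 10 members were called lower, with scaling by the 3 reference genes 9 and with AY036118 left out 3, all lower. With limma-voom none was called. The call of Pfkfb4 was also lost with DESeq2, with no filter on low counts and with all groups in 1 fit. Without each library in turn 1 to 7 were called, all lower, with the highest count without IM72h library 2. Of the pathway lists, 5 of 24 other glycolytic genes, 1 of 9 oxygen-sensing genes and 4 of 25 other hypoxia targets were called at IM72h, all lower.

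The interaction with fraction at these later times rested on the same sparse libraries, and ME also changes its mouse line there. At IM24h, 1 of 33 members differed, where 0.537% of all 17682 genes were called (0.277% higher and 0.26% lower). It was Eno1, with a log2 difference of 4.10 ± 0.77 (SE), adjusted p = 0.0298, from 24, 95.2, 100.3 and 277 CPM in RiboTag, and with its near-identical copies added the difference was 1.08 and not called. At IM72h, 6 of 33 members differed, each lower in RiboTag, where 23.2% of all 16825 genes were called (2.12% higher and 21.1% lower) and the median of all genes was itself -1.04. Pfkfb4 (-6.44, adjusted p = 0.00157), Adm (-5.11), Vegfa (-5.03 ± 1.27) and Slc2a1 (-4.70 ± 1.196) were the genes with few or no counts in RiboTag at IM72h. Their fitted values depend on the prior count. Adm had no count there, and its value ran from -6.14 to -0.68 over the alternatives that keep all libraries. No size can thus be given for its difference. Pgam1 (-2.34 ± 0.71) and Aldoa (-1.53 ± 0.47) had counts in every library. DESeq2 called 9 members, of which Eno1 (3.27) and P4ha1 (1.69) were higher in RiboTag, and with its copies added Eno1 was at -1.15 without a call in edgeR. The call of Adm was lost under 5 of 9 alternatives and that of Pgam1 with RLE size factors, while those of Pfkfb4, Slc2a1, Vegfa and Aldoa were made in every alternative other than leaving out libraries. The calls of Aldoa and Pgam1 were lost without naive RiboTag library 2 or 3, IM72h ME library 2 or 4 or any naive ME library, and Adm was called in 3 of the 14 fits that leave out a library, those without naive RiboTag library 1 or 3 or IM72h ME library 1. Eno1 at IM24h lost its call with limma-voom and without any naive RiboTag library or any ME library.

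In naive mice, the glial pulldown held less of 7 of the 14 enzymes of the chain than the whole tissue and more Ndrg1 and Car9. Of 33 members, 2 were higher and 12 lower in naive RiboTag than in naive ME, where 26.1% of all 14767 genes were called (13.4% higher and 12.7% lower), and the median log2 difference was -0.44 over the members and -0.01 over all genes. Ndrg1 was at 113 to 161 CPM in naive RiboTag and 33.4 to 39.9 CPM in naive ME (log2 difference 2.16 ± 0.20 (SE), adjusted p = 0.000238), and Car9, a membrane carbonic anhydrase, was at 23.5 to 46.2 CPM and 10.5 to 18.5 CPM (log2 difference 1.70 ± 0.34 (SE), adjusted p = 0.00703). These levels were scaled within each fraction, and the differences come from a joint fit. In the lower part of the chain 4 of 6 genes were lower, with Gapdh at -1.48 ± 0.19, Pgam1 at -0.90 ± 0.17, Ldha at -0.86 ± 0.19 and Pkm at -0.76 ± 0.16, and in the upper part 3 of 8, with Tpi1 at -0.93 ± 0.19, Aldoa at -0.74 ± 0.15 and Pfkp at -0.48 ± 0.15. Hif1a (-1.10 ± 0.30), Egln3 (-1.002 ± 0.23), Ero1l (-1.29 ± 0.19), an oxidase of disulfide formation, and Adm (-2.70 ± 0.74) were lower too. Bnip3 was lower at -3.56 ± 0.79 and at -0.05 with its copies added. Of the pathway lists, 1 of 26 other glycolytic genes was higher, Aldoc (1.48), an aldolase of astrocytes and other neural cells, and 9 were lower, led by Pdk3 (-2.26), Ldhb (-1.47) and Pdha1 (-1.19). Among 10 oxygen-sensing genes 4 were higher, led by Arnt2 (1.86), Hif1an (1.09) and Arnt (0.88), and Cited2 was lower (-1.85), and of 27 other hypoxia targets 3 were higher, led by Car12 (2.29), and 6 lower, led by Higd1a (-2.20). Gapdh has 133 near-identical sequences in the annotation, and it was still lower with these added, at -1.08, while Eno1, not called on its own, was called lower with its copies added, at -0.65.

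The naive comparison changed with the scaling. With library totals alone the median of all genes was 0.73, and 7 members were higher and 2 lower, with Aldoa at 0.0044 and Pfkp at 0.26. With scaling by the 3 reference genes 2 were higher and 3 lower. Ndrg1 and Car9 were called higher and Gapdh lower under every alternative run. The calls of Adm and Pfkp were lost without RiboTag library 3 or any ME library, that of Hif1a without any ME library and that of Bnip3 without ME library 1 or 3, and limma-voom called neither Adm nor Bnip3. Smooth muscle markers were lower in naive RiboTag in 6 of 8 (median log2 difference -1.10), fibroblast markers in 4 of 4 (-1.68), and markers of interstitial cells of Cajal in 2 of 4 and of macrophages and monocytes in 2 of 8. Their part in the lower enzymes was not tested, and the mouse line cannot be told apart from the fraction.

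With TMM scaling and all libraries, edgeR called none of Hk1, Gapdh, Pgk1, Pdk1, Car9 and Ero1l in either fraction at any time against naive. Each had a call in some comparison with another scaling or with a library left out. With library totals alone Hk1, Pgk1, Pdk1 and Ero1l were called higher in ME at IM24h, with Hk1 at 0.50 on the log2 scale. With the 3 reference genes Gapdh and Ero1l (-0.42) were called lower in ME at IM72h. In RiboTag at IM72h, Ero1l was called lower without library 1, Car9 and Pgk1 without library 2 and Gapdh without library 4. Gapdh was also called lower in RiboTag at IM3h without IM3h library 4 and in ME at IM72h without IM72h library 4. Pgk1, which makes the first ATP of the lower part of the chain, lay at 112 to 146 CPM in naive ME and at 148 to 163, 123 to 166 and 134 to 173 CPM at IM3h, IM24h and IM72h. Hk1, the constitutive hexokinase, lay at 91.9 to 113 CPM in naive ME and at 80.2 to 117, 83.1 to 100.3 and 100.2 to 147 CPM at the same times. The 95% intervals of the log2 fold change of Hk1 in ME were -0.31 to 0.32, -0.45 to 0.19 and -0.19 to 0.48, narrower than in RiboTag, where they were -0.11 to 0.87, -1.99 to 0.19 and -2.86 to 0.54. For Gapdh, often used as a reference gene, the intervals in ME were -0.47 to 0.17, -1.04 to 0.25 and -0.69 to 0.31.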

How the data were processed

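Libraries were prepared with a 3′ end kit and read single-end. The submitters' processing notes and the methods name cutadapt, STAR and Partek, Ensembl transcripts and mm10, and the deposited values are estimated counts made by the authors, per transcript in RiboTag and per gene in ME, for which the use of strand is not given in the sources used here. Counts sit near the 3′ end of a transcript, so levels were not compared between genes.

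RiboTag transcripts were summed to genes by symbol, and the estimated counts were rounded. Naive RiboTag libraries appear in several tables with the same counts and were used once. The labels list 4 naive RiboTag samples, and counts of 3 were analysed. The library names in the tables match no sample title, so each library was placed in its group by the treatment written beside it and the fraction of its table. Genes passing filterByExpr were tested with edgeR 4.0.16 (R 4.3.3) using TMM scaling, the quasi-likelihood test and Benjamini-Hochberg adjustment over all genes tested, and the scripts were tested on simulated data. Only the groups compared entered a fit, and differences between fractions are interaction terms with each fraction's own naive group. The SE of a log2 fold change is its size divided by the square root of F, and CPM use TMM-scaled totals over a fraction. Alternatives were DESeq2 1.42.0, limma-voom (limma 3.58.1), the study's threshold (unadjusted p under 0.05 and over 2-fold), RLE factors, library totals, scaling by 3 reference genes, leaving out AY036118, no filter, the transcript table, all groups in 1 fit and each library left out. Adding near-identical copies (matches to the 3′ ends over at least 100 bases at 95% identity or more, or overlap with another gene) was chosen after seeing the data.

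The members and all lists were chosen with earlier results of these data known. All members were described, and at most 3 risers and 3 fallers of a pathway list were named per comparison, and 1 gene of these lists is not reported here by name. P-values measure the spread between these libraries, for which the study's legends count animals. Gene positions are from GENCODE vM21 on mm10, and promoters from RefSeq.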

Additional observations from a re-analysis of the deposited data

Results flagged for a closer look

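In all, 16 values of single libraries lay far from the other libraries of their group by Dixon's test, among 160 groups of 4 libraries tested, where chance would give about 1 in 20. At IM72h in RiboTag these were the highest library of Egln3 (134 CPM), P4ha1 (158 CPM), Ero1l (77.0 CPM) and Slc2a3 (59.4 CPM), each in library 1, of Car9 (7.04 CPM) and Slc16a3 (15.8 CPM) in library 2, of P4ha2 (81.6 CPM) in library 3, and of Ankrd37 (32.0 CPM), Gapdh (77.0 CPM) and Pfkm (86.9 CPM) in library 4. In library 4 Pgam1 was the lowest, at 8.62 CPM. At IM24h in RiboTag, Pfkfb4 reached 33.7 CPM in library 3 and Adm 1.34 CPM in library 4. At IM3h in RiboTag, library 4 was the highest for Gapdh (27.0 CPM) and Pkm (139 CPM). In ME, Slc16a3 reached 51.2 CPM in library 1 at IM72h.

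The response differed between the fractions by the interaction test in edgeR for 9 values, given as the log2 fold change in RiboTag minus that in ME. At IM3h these were Ndrg1 at -1.90 and Aldoa at -1.37. At IM24h it was Eno1 at 4.10. At IM72h they were Pfkfb4 at -6.44, Adm at -5.11, Vegfa at -5.03, Slc2a1 at -4.70, Pgam1 at -2.34 and Aldoa at -1.53. Pfkfb4, Adm, Vegfa and Slc2a1 had 1, 0, 2 and 3 counts in the 4 IM72h RiboTag libraries together. The sizes of their differences depend on the prior count. That of Adm ran from -6.14 to -0.68 over the alternatives that keep all libraries.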

How the results depend on the processing

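Of the single-gene values, 3496 stayed on their side of the threshold under the alternatives that keep all libraries. There 159 gained a call, 137 lost one and 19 reversed with a call before or after. Without each library in turn 3198 stayed on their side, 54 gained, 118 lost and 3 reversed. Where a value had no call before or after, a change of sign was not counted. The cause of these changes was not tested. No paired analysis was possible because the library names in the tables carry no replicate numbers from the labels.

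The number of members called moved as follows. With the study's threshold it was 11 (IM24h), 4 (IM72h) and 12 (IM24h against IM3h) in RiboTag, 8 (IM24h), 7 (IM72h) and 6 (IM72h against IM24h) in ME, and 5, 5 and 12 for the differences between fractions at IM3h, IM24h and IM72h. With library totals it was 10 in RiboTag at IM72h, 9 between the naive fractions, and 1 and 17 for the differences at IM3h and IM72h. With the 3 reference genes it was 3 (IM3h) and 9 (IM72h) in RiboTag, 20 (IM3h) and 8 (IM72h against IM24h) in ME, 5 between the naive fractions, and 0, 0 and 10 for the differences. With DESeq2 it was 4 in RiboTag at IM24h, 4 from IM3h to IM24h and 2 for the difference at IM24h. With limma-voom it was 2 (IM24h), 0 (IM72h) and 1 (IM24h against IM3h) in RiboTag, and 0 and 14 for the differences at IM24h and IM72h. In RiboTag it was 3 without AY036118 at IM72h, 0 with no filter at IM72h, 1 with no filter from IM3h to IM24h, and 0 with all groups in 1 fit at IM3h. With copies added it was 2 in RiboTag at IM72h and 0 for the difference at IM24h.

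Leaving out 1 library gave 5 to 8 calls in RiboTag at IM3h, 0 to 4 at IM24h, 1 to 7 at IM72h and 0 to 3 from IM3h to IM24h. In ME it gave 11 to 13, 10 to 16, 12 to 16 and, from IM24h to IM72h, 10 to 16. It gave 10 to 17 between the naive fractions, and 1 to 4, 0 to 4 and 3 to 11 for the differences.

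Log2 values that reversed with a call before or after were, with library totals, Hk1 at 0.50 in ME at IM24h, Aldoa 0.49, Gpi1 0.55, Ldha 0.56, Pfkm 0.53, Pkm 0.57 and Tpi1 0.28 in ME at IM72h, and Aldoa 0.0044, Pfkp 0.26 and Pgk1 0.67 between the naive fractions. With the 3 reference genes they were Aldoa -0.38 and Pfkp -0.30 in ME at IM3h, and Ero1l -0.42, Hk2 -0.60, Ndrg1 -0.54, P4ha1 -0.50 and Pfkp -0.18 in ME at IM72h. With copies added they were Bnip3 0.42 in ME at IM72h and Eno1 0.61 from IM24h to IM72h. Over the libraries left out, Ero1l at IM72h in RiboTag ran from -6.17 (without library 1) to 0.83, Ankrd37 from -6.00 (without library 4) to 2.80, and its difference between fractions from -7.71 (without library 4) to 1.68.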
